A study of Mus musculus with 9 samples.

Results

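The E proteins are transcription factors of the basic helix-loop-helix class, encoded in the mouse by Tcf3 (E2A), Tcf4 (E2-2) and Tcf12 (HEB), and the Id proteins are their inhibitors. The 3 E protein genes and the Id genes Id1 and Id3 were taken by symbol, without regard to their values. They make 5 of the 19938 genes that had a probe set of their own, and each of the 5 was read by exactly 1 probe set. The probe table ties the symbols Tcf3 and Tcf4 to the E protein genes and not to the HMG-box genes Tcf7l1 and Tcf7l2, which once shared those names. Id2 and Id4, the rest of the Id family, are shown beside the members.

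Transcripts were measured on 9 Affymetrix whole-transcript arrays, 3 for each of 3 populations sorted from bone marrow. All animals were heterozygous for a Zbtb46-GFP reporter, an allele in which green fluorescent protein reports transcription of the classical dendritic cell (DC) factor Zbtb46. The populations were common DC progenitors without reporter signal (Zbtb46- CDPs), common DC progenitors with it (Zbtb46+ CDPs), and pre-CD8 DCs, the bone marrow precursors of the classical DC lineage called cDC1. The strain, the age of the mice, the sort gates and the origin of the replicates are not given in the sources used here, so the p-values measure only the spread between these arrays.

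E proteins bind DNA as pairs at the E-box, and in lymphoid progenitors they switch on antigen receptor recombination and early B and T cell genes. Id proteins pair with E proteins but lack the basic DNA-binding region, so that the pair cannot bind DNA. In the DC lineage TCF4 is required to form and keep plasmacytoid DCs (pDCs), whereas ID2 is a mark of the classical DC lineage and is required for cDC1.

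The E-box is the sequence CANNTG, which reads the same on both strands. The 250 bases before the start of each gene were searched for it in the RefSeq promoters of the build GRCm38.p6, where 5 of the 7 family genes were found. It is a short motif that 66.2% of 32851 promoters hold, so a match is a description and not a binding site. The stretches below show how the letters lie in 2 E protein genes, in Id3, a member whose signal stayed low, and in Id2, the Id gene that changed. The E-box is in capitals and each sequence runs 5′ to 3′ on the strand of its gene.
Tcf3, chr10:80433667-80433706, minus strand, E-box 54 bases before the start: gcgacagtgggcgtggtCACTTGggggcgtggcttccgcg
Tcf12, first of 3 listed starts, chr9:72112037-72112069, minus strand, E-box 240 bases before the start: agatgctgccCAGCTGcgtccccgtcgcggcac
Id2, chr12:25096266-25096305, minus strand, E-box 196 bases before the start: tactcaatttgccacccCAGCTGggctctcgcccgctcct
Id3, chr4:136143572-136143821, plus strand, no E-box in the window: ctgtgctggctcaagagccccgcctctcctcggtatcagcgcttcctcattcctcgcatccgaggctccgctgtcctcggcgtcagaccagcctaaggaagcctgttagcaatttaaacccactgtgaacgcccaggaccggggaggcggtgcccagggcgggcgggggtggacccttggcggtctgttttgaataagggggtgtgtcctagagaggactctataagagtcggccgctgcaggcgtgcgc
Of the other Tcf12 starts, the second has a CAAGTG 149 bases before it and the third no E-box in its window. The CAGCTG form, found at the first Tcf12 start and at Id2, occurs in 4271 of the 32851 promoters of the same length. The letters GGCGCC, which are known from elements that answer bone morphogenetic protein (BMP) signals through SMAD factors, occur in the Id2 and Id4 windows, not in that of Id3, and in 9.59% of promoters.

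Values are the log2 of the deposited signal, and a difference of 1 is a doubling. Tests are limma's moderated tests on all 9 arrays, adjusted over 19938 genes by Benjamini-Hochberg, with a call at an adjusted p under 0.05. The first step is Zbtb46+ CDPs minus Zbtb46- CDPs, the second step pre-CD8 DCs minus Zbtb46+ CDPs, and the whole span pre-CD8 DCs minus Zbtb46- CDPs. These comparisons share arrays. Probe sets differ in their response, so levels are compared between populations for 1 gene and not between genes.

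Array medians ran from 110.2 to 118.0 on the linear scale. Of 10 genes that mark pre-CD8 DCs and cDC1, 7 were called higher at each step and 9 over the whole span, which goes with the labels. Zbtb46, whose reporter divided the CDPs, is among the 10. Of all 19938 genes 768, 949 and 1282 were called higher. The 5 CDP markers were mixed over the whole span. Kit and Csf2ra were called higher, by 1.12 and 1.09, and Csf1r and Cx3cr1 lower, with differences of -3.66 and -1.39. Replicate 1 of both CDP groups stood apart. These arrays were low in Xist, the transcript of the inactive X chromosome, at 5.59 and 5.30 against 11.85 to 12.29 on the other 7, and high in the neutrophil granule gene Ngp, at 10.48 and 12.36 against 5.39 to 8.54. They were also high in Eif2s3y, a gene of the Y chromosome, at 6.92 and 6.51 against 3.63 to 3.78. Sex-linked transcripts thus differed between these 2 arrays and the other 7, which include all pre-CD8 DC arrays. These genes were chosen after their values were seen, and results that rest on these 2 arrays are also given without them.

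Among the 5 members, Tcf4 was the only one with a call in any pairwise comparison. It was 1.61-fold lower in pre-CD8 DCs than in Zbtb46- CDPs. Tcf3 and Tcf12 stayed bright on every array with no called difference, and Id1 and Id3 stayed below the median of all probe sets. At the first step 0 of 5 members were called, where 14.4% of all genes were, and 2 members, Tcf4 and Tcf12, had an unadjusted limma p under 0.05. At the second step 0 of 5 were called, where 6.62% of genes were, and 0 reached an unadjusted p under 0.05. Over the whole span 1 of 5 was called, against 15.7% of genes, so the share of members called was near the background. The median log2 difference of the members was -0.0034, -0.089 and -0.12 in the 3 comparisons, beside 0.037, -0.034 and 0.0059 for all genes.

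**Figure D1:**
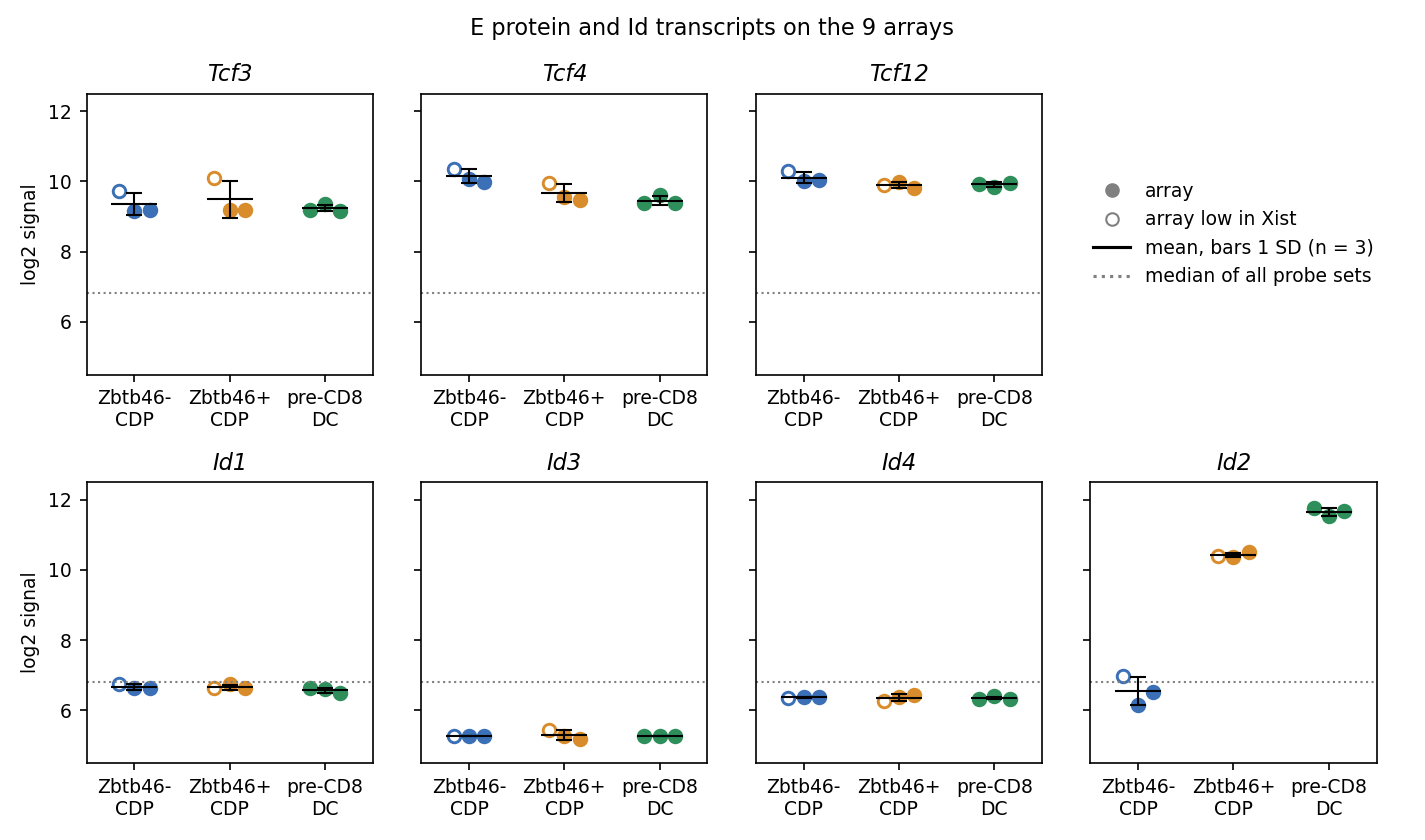
Log2 signal of each E protein and Id gene on the 9 arrays, by population. Points are arrays, open points the 2 CDP arrays low in Xist, bars the mean and 1 SD of 3 arrays, and the dotted line the median of all probe sets, 6.82. The 3 E protein genes lie above that line on every array, Id1, Id3 and Id4 lie below it, and Id2 lies near the line in Zbtb46- CDPs and far above it in the other populations.

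Tcf4 encodes E2-2, the E protein on which pDCs depend. Its log2 signal was 10.36, 10.07 and 9.98 on the Zbtb46- CDP arrays. It was 9.96, 9.55 and 9.48 on the Zbtb46+ CDP arrays. It was 9.37, 9.60 and 9.39 on the pre-CD8 DC arrays. Every Zbtb46- CDP array thus lay above all arrays of the other 2 populations, by a gap as small as that from 9.96 to 9.98, while Zbtb46+ CDPs and pre-CD8 DCs overlapped. The means were 10.14 ± 0.20, 9.66 ± 0.26 and 9.45 ± 0.13 (SD, n = 3 each).

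Over the whole span Tcf4 fell by 0.69 on the log2 scale (SE 0.146, 95% interval -1.02 to -0.36, limma adjusted p = 0.0111). A call in the lower direction was made for 9.23% of genes, and 33.7% of genes had arrays of the 2 end populations that did not overlap. The call depended narrowly on the pre-CD8 DC arrays. Without pre-CD8 DC replicate 3 the difference was -0.66 with a limma adjusted p of 0.05003, just short of a call. With both arrays low in Xist left out it was -0.58 (limma adjusted p = 0.00254). The F test over the 3 populations called Tcf4 (limma adjusted p = 0.022), as it did 19.1% of genes. In bulk RNA of sorted cells, fewer cells that express a gene and less transcript per cell cannot be told apart.

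At the first step the Tcf4 difference was -0.48 (SE 0.146, 95% interval -0.81 to -0.15), which is 1.39-fold lower, and the limma adjusted p of 0.0604 missed the threshold. The arrays of the 2 groups did not overlap, as for 29.3% of genes, and 10.6% of genes were called lower. Both replicate 1 arrays were the highest of their group. Same-numbered CDP arrays varied together across genes. The highest correlation of deviations from the group means between differently numbered CDP arrays was 0.38. Number 2, at 0.42, was little above that, and number 3, at 0.36, was below it. With the replicate number as a block the limma adjusted p for the same difference was 0.0369. Without the 2 arrays low in Xist it was -0.51 (SE 0.094, limma adjusted p = 0.00849), a fit in which 13.8% of genes were called lower. Without Zbtb46+ CDP replicate 1 alone it was -0.62, with a limma adjusted p of 0.00721. Dropping any other array left it between -0.56 and -0.37 and short of a call.

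At the second step the Tcf4 difference was -0.21 (SE 0.146, 95% interval -0.54 to 0.12, limma adjusted p = 0.489), and the arrays overlapped, whereas 22.9% of genes had arrays that did not. It was -0.064 with both arrays low in Xist left out (limma adjusted p = 0.626), and the same without Zbtb46+ CDP replicate 1 alone. The direct test of the second step against the first gave 0.27 (95% interval -0.30 to 0.84, limma adjusted p = 0.544), a contrast in which 7.63% of genes were called. Leaving out both arrays low in Xist gave 0.45 (95% interval 0.079 to 0.82, limma adjusted p = 0.0883), and with single arrays left out it ran from 0.084, without Zbtb46+ CDP replicate 3, to 0.56, without Zbtb46+ CDP replicate 1. No call was made for this contrast in these fits, and its size depended on the Zbtb46+ CDP arrays.

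**Figure D2:**
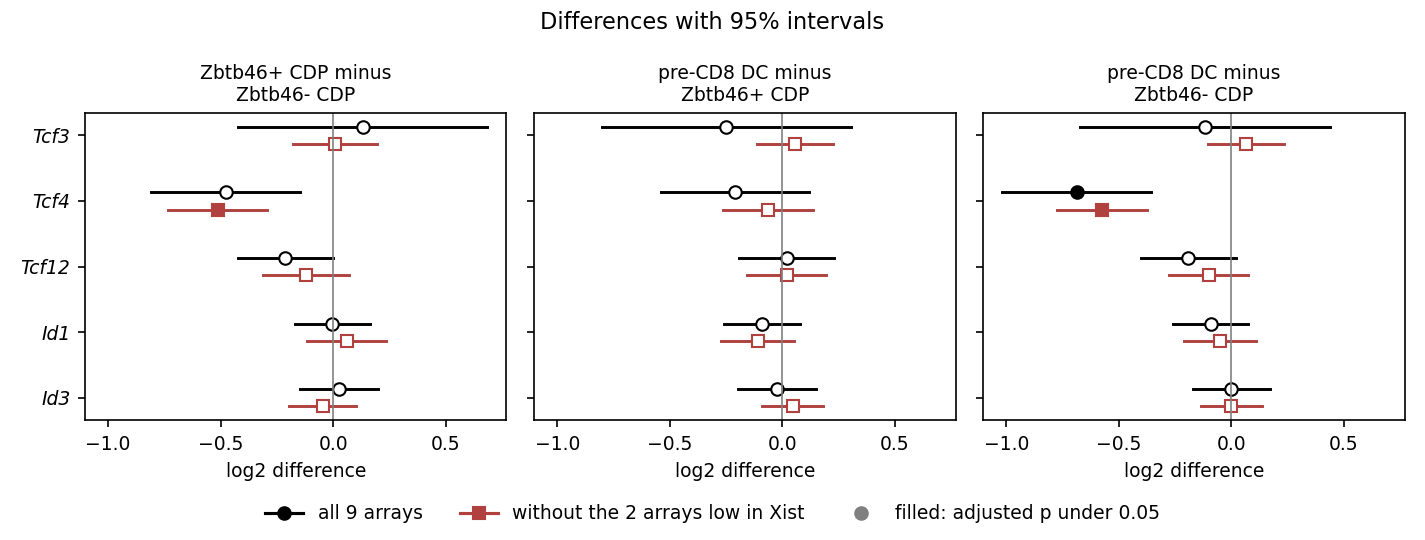
Log2 differences of the 5 members in the 3 comparisons, with 95% intervals from limma. Black circles use all 9 arrays, red squares leave out the 2 arrays low in Xist, and filled symbols have an adjusted p under 0.05. Tcf4 lies left of 0 in every panel, the Tcf3 interval shrinks from -0.42 to 0.69 to between -0.18 and 0.19 at the first step, and the intervals of Id1 and Id3 all span 0.

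Tcf12 encodes HEB, the E protein partner of E2A in early T cells. Its log2 signal was 10.29, 10.00 and 10.03 in Zbtb46- CDPs, 9.89, 9.98 and 9.80 in Zbtb46+ CDPs, and 9.94, 9.84 and 9.96 in pre-CD8 DCs. The 3 Zbtb46- CDP arrays lay above all others, but the gap from 9.98 to 10.00 was small. Arrays of the 2 groups did not overlap for 29.3% of genes at the first step and 33.7% over the whole span. The first-step difference was -0.21 (SE 0.093, 95% interval -0.42 to -0.0025), with an unadjusted limma p of 0.0478 and an adjusted p of 0.167. The second-step difference was 0.02 (95% interval -0.19 to 0.23, limma adjusted p = 0.926). Over the whole span it was -0.19 (95% interval -0.40 to 0.02, limma adjusted p = 0.257), which allows a fall of up to 0.40 and leaves little room for a rise. Replicate 1 of the Zbtb46- CDPs was the highest array, and without the 2 arrays low in Xist the first-step difference was -0.12 (limma adjusted p = 0.335).

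Tcf3 encodes E12 and E47, the E2A proteins that start B cell development. Its log2 signal was 9.72, 9.16 and 9.20 in Zbtb46- CDPs, 10.10, 9.17 and 9.20 in Zbtb46+ CDPs, and 9.20, 9.35 and 9.17 in pre-CD8 DCs. The 2 arrays low in Xist were the highest of the 9, and the other 7 lay between 9.16 and 9.35. The differences were 0.13 (95% interval -0.42 to 0.69), -0.25 (-0.80 to 0.31) and -0.12 (-0.67 to 0.44) at the first step, the second step and over the whole span, with limma adjusted p of 0.747, 0.637 and 0.872. Without those 2 arrays they were 0.0084 (-0.18 to 0.19), 0.05 (-0.11 to 0.22) and 0.06 (-0.11 to 0.23). The first of these intervals reaches no further than 0.19 in either direction. It rests on 2 arrays in each CDP group, after the 2 arrays highest in Tcf3 were left out.

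The high Tcf3 arrays were also the highest 2 in 6 of the neutrophil markers, Ngp, Camp, Lcn2, Ltf, S100a8 and S100a9, none of which had a called difference between populations. Lcn2, one of these genes and chosen here after its values were seen, was 8.68 and 11.38 on them and 5.44 to 6.62 on the other 7. Within the pre-CD8 DCs Ngp was 8.30, 5.78 and 8.54, and there the array lowest in Ngp was the one highest in Tcf3. The other 3 of the 9 markers, Mpo, Prtn3 and Elane, which are granule genes of early myeloid progenitors, fell over the whole span, with differences of -7.54, -5.31 and -4.54. Mpo, for example, was 13.62, 13.66 and 13.59 in Zbtb46- CDPs, 12.62, 11.59 and 11.52 in Zbtb46+ CDPs, and 5.79 to 6.43 in pre-CD8 DCs. The summed level of all 9, carried in Zbtb46- CDPs largely by these 3, was 14.54 to 14.80 in Zbtb46- CDPs, 12.80 to 14.94 in Zbtb46+ CDPs and 9.83 to 10.90 in pre-CD8 DCs. On the 2 high Tcf3 arrays the Y-linked Eif2s3y was 6.92 and 6.51, against 3.63 to 3.78 on the other 7. Neither the part of other cells nor that of sex in the Tcf3 values was tested.

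Id1 and Id3 encode Id proteins whose transcription answers to BMP and transforming growth factor beta (TGF-beta) signals. That of Id3 also answers to antigen receptor signals in lymphocytes. The Id1 log2 signal was 6.75, 6.63 and 6.62 in Zbtb46- CDPs, 6.62, 6.75 and 6.62 in Zbtb46+ CDPs, and 6.62, 6.60 and 6.50 in pre-CD8 DCs. The Id3 log2 signal was 5.28 on 7 of the 9 arrays, and 5.44 and 5.18 on replicates 1 and 3 of the Zbtb46+ CDPs. The populations overlapped for both genes, and no array stood out by more than a small fraction of a log2 unit.

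The deposited value of Id3 was the very same number on those 7 arrays, and that of Id1 on 4. Such ties on 4 or more arrays occurred in 11.6% of genes, in 20.5% of those with a mean below the table median of 6.82 and in 3.66% of those above it. The differences of Id1 and Id3 are those of the deposited signal, and how far signals at this level follow the transcript was not tested. For Id1 they were -0.0034, -0.089 and -0.093, with 95% intervals that all lay between -0.26 and 0.16. For Id3 they were 0.02, -0.02 and 0, with intervals between -0.20 and 0.20. The smallest limma adjusted p of the 6 tests was 0.566. Id4, an Id protein best known from the brain, lay between 6.26 and 6.45 on all arrays, and its adjusted p ran from 0.962 to 0.974.

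As a reference for dim probe sets of the same protein class, 15 bHLH factors of muscle, nerve and other tissues had group means from 4.97 to 7.04, and 0 of the 15 were called in any of the 3 comparisons. Id1, Id3 and Id4 fall within that range in every population.

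Id2 was the Id gene that changed. Its log2 signal was 6.97, 6.17 and 6.54 in Zbtb46- CDPs, 10.39, 10.37 and 10.50 in Zbtb46+ CDPs, and 11.76, 11.53 and 11.67 in pre-CD8 DCs, with no overlap between any 2 populations. The steps were 3.86 and 1.23 on the log2 scale, with limma adjusted p of 5.04e-06 and 0.00347. In the Zbtb46- CDPs the Id2 signal was near the table median and within the range of the dim bHLH genes above, so the first step is a difference of signal from a level not shown to be above background, and not a measure of the change in transcript. Across the same populations 1 of the 4 Id genes rose while no difference was called for the other 3.

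The genes most like Tcf4 were sought by the Pearson correlation of log2 signal over the 9 arrays, among 981 genes whose group means range over at least 1. They were Lrp1, an endocytic receptor (r = 0.979), Runx1, a transcription factor of blood stem and progenitor cells (r = 0.978), Thra, a thyroid hormone receptor (r = 0.978), and Mmachc, an enzyme of cobalamin metabolism (r = 0.975). The arrays share populations and the 2 that stand apart, so the correlations are a description with no test. Their whole-span differences were -1.20, -1.02, -1.10 and -1.06, and the range asked of the candidates leaves out smaller ones. Runx1, for example, was 10.09, 9.48 and 9.52 in Zbtb46- CDPs, 9.59, 8.82 and 8.84 in Zbtb46+ CDPs, and 8.69, 8.74 and 8.59 in pre-CD8 DCs, with the first array of each CDP group again the highest of its group.

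**Figure D3:**
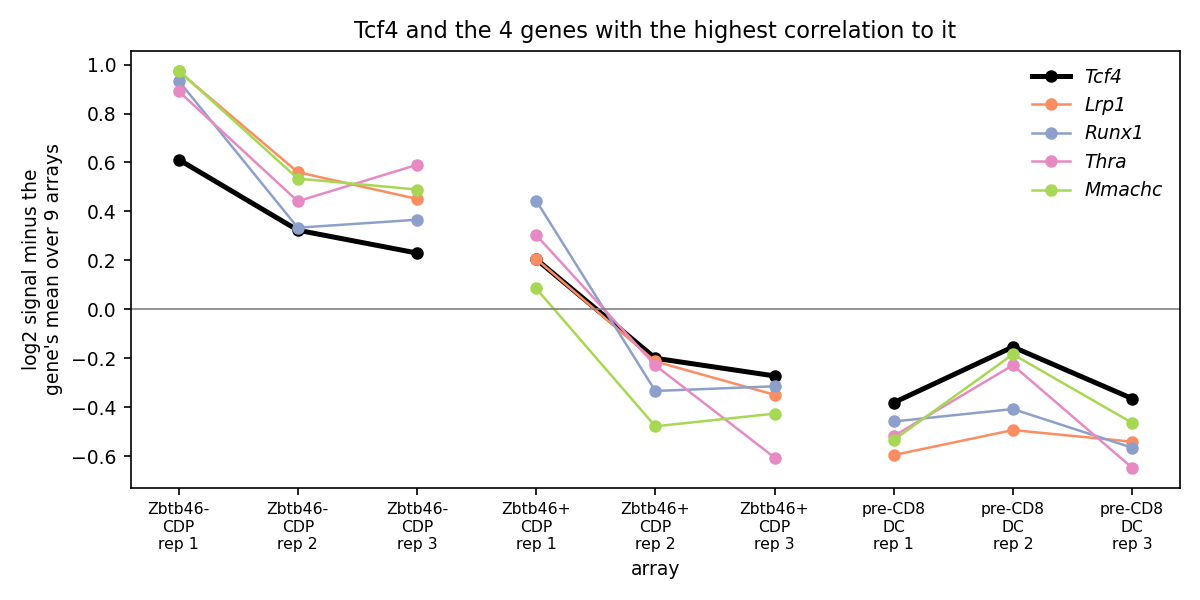
Log2 signal of Tcf4 and of the 4 genes with the highest correlation to it, each minus its mean over 9 arrays, on every array. Lines join the values of 1 gene within a population and carry no order of replicates. All 5 genes lie above their mean in the 3 Zbtb46- CDP arrays and below it in the 3 pre-CD8 DC arrays, and replicate 1 is the highest array of each CDP group.

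The counts of the lists that follow stand beside 14.4%, 6.62% and 15.7% of all genes called in either direction at the first step, the second step and over the whole span. Genes for the proteins that act with E proteins in blood progenitors moved in both directions. Of 12 genes for blood bHLH partners and the LMO2 complex, which bridges TAL1 and E protein pairs to GATA factors, 1 was called higher and 2 lower at the first step, 2 and 0 at the second, and 3 and 3 over the whole span. Lmo2, the bridging protein itself, was 9.12 ± 0.10 in Zbtb46- CDPs and 8.40 ± 0.10 in Zbtb46+ CDPs and fell by 0.72 (SE 0.087, limma adjusted p = 0.000862). Its relative Lmo4 rose by 0.68 (SE 0.130, adjusted p = 0.00797) at the same step. Of the LDB1-binding proteins, Ssbp3 was 0.80 higher (SE 0.108) and Ssbp2 0.74 lower (difference -0.74, SE 0.131) in pre-CD8 DCs than in Zbtb46- CDPs, so that 2 close relatives went opposite ways. Both second-step calls, Lmo2 at 0.46 and Ssbp3 at 0.45, were lost when single arrays were left out. For Lmo2 these were Zbtb46+ CDP replicates 2 and 3 and pre-CD8 DC replicates 1 and 2 (limma adjusted p 0.0503 to 0.0660), and for Ssbp3 replicates 2 and 3 of both CDP groups and every pre-CD8 DC array (0.0542 to 0.147). Without the 2 arrays low in Xist the counts were 1 and 3, 3 and 1, and 3 and 4.

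Of 10 measured cofactors of E proteins, 2 were called higher and 2 lower at the first step, 0 at the second, and 2 higher and 1 lower over the whole span. Cbfa2t3, a corepressor of the ETO family that binds E proteins, was 8.76, 8.52 and 8.49 in Zbtb46- CDPs, 10.99, 9.63 and 9.63 in Zbtb46+ CDPs, and 10.27, 10.11 and 10.01 in pre-CD8 DCs. It rose by 1.54 over the whole span (SE 0.316, limma adjusted p = 0.00954). Its first-step rise of 1.49 (limma adjusted p = 0.0136) had Zbtb46+ CDP replicate 1 as its highest array, was 1.12 without the 2 arrays low in Xist (adjusted p = 0.000309), and was 1.44 and short of a call (adjusted p = 0.0538) without Zbtb46- CDP replicate 3. Kat2a, the acetyltransferase GCN5, fell by 0.95 at the first step (SE 0.139, adjusted p = 0.00232) and was 0.77 lower over the whole span (difference -0.77). With the 2 arrays left out the counts were 2 and 3, 2 and 0, and 2 and 2.

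Of 15 measured early lymphoid genes known as E protein targets, 0 were called higher in any comparison, and 4, 0 and 5 were called lower at the first step, the second step and over the whole span, where 10.6%, 1.86% and 9.23% of all genes were called lower. The list median was -0.073, -0.077 and -0.17, beside 0.037, -0.034 and 0.0059 for all genes. Dntt, the terminal transferase that adds bases to antigen receptor joints, was 9.24, 7.18 and 7.26 in Zbtb46- CDPs, and 5.16 to 5.71 on the other 6 arrays. It fell by 2.49 at the first step (SE 0.471, limma adjusted p = 0.0078), and by 1.93 without the 2 arrays low in Xist. Blnk, a B cell receptor adaptor, fell by 0.99 (SE 0.195) and Cd79b, a chain of that receptor, by 0.52 (SE 0.095), both at the first step. Notch1, the receptor that starts T cell development, fell by 1.22 over the whole span (SE 0.246, limma adjusted p = 0.00875). The other 10 measured members were not called over the whole span. Of these, Rag1, Rag2, Ebf1, Cd79a, Pax5 and Vpreb3 had group means below the table median of 6.82 in every population. Dntt and Blnk had means below that median outside the Zbtb46- CDPs. Il7r, called lower at the first step and over the whole span, lay below it in every population, with means of 5.79, 4.83 and 4.92. How far signals at this level follow the transcript was not tested. Without the 2 arrays the counts lower were 5, 3 and 6, and those higher remained 0.

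Of 13 measured pDC genes, among them targets of TCF4, 1 was called higher and 2 lower at the first step, 2 and 0 at the second, and 3 and 3 over the whole span. Irf7, the interferon regulator of pDCs, rose by 1.24 and then by 1.95 (SE 0.110 for both, limma adjusted p = 0.000195 and 1.65e-05). Ccr9, a chemokine receptor of pDCs, was called higher at the second step (limma adjusted p = 0.00045) and rose by 1.84 over the whole span (SE 0.136). Tlr7, an RNA sensor, went the other way and fell by 1.19 at the first step (SE 0.255, limma adjusted p = 0.0144) and by 1.42 over the whole span. Its group means of 6.26, 5.07 and 4.83 were all below the table median of 6.82. So were those of Ccr9 in Zbtb46- and Zbtb46+ CDPs, at 5.46 and 5.89. Whether such low signals follow the transcript was not tested. The list median over the whole span was -0.017, and the signals of single pDC genes thus moved both with and against that of Tcf4. Without the 2 arrays low in Xist the counts were 2 and 2, 3 and 1, and 4 and 3.

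Markers of pDC and B lineage cells were read beside Tcf4, which both cell types express. Every one of these markers is also on the pDC or the early lymphoid list above. Their calls are therefore already counted there and are not a separate reading. The summed level of 7 pDC markers was 11.70 to 12.05 in Zbtb46- CDPs, 11.47 to 11.52 in Zbtb46+ CDPs and 11.60 to 11.76 in pre-CD8 DCs, and 0 were called higher and 1 lower at the first step and 1 higher and 2 lower over the whole span. This sum is mostly Bst2, with group means of 11.45, 11.04 and 11.29. The 2 called lower over the whole span were Siglech, a surface lectin of pDCs (difference -0.75, limma adjusted p = 0.00844), and Cox6a2 (-0.49, adjusted p = 0.0297), and Ccr9 was the 1 called higher. The sum of 8 B lineage markers was 9.96 to 10.14, 9.69 to 9.82 and 9.54 to 9.61, an order of the populations like that of Tcf4, with Cd79b the 1 called, lower at the first step and over the whole span. Cd79b is also the brightest of the 8, with group means of 8.95, 8.43 and 8.155, so much of this order is its own. The part of such cells in the Tcf4 difference was not tested.

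The list of 26 genes of the BMP and TGF-beta pathways, which act on Id1 and Id3, holds ligands, receptors, signal carriers and inhibitors. Of these, 1 was called higher and 2 lower at the first step, and 1 and 1 at the second. Over the whole span the counts were 3 and 4. The 1 called higher at the first step was the inhibitor Smurf1 (0.60, limma adjusted p = 0.0289). Over the whole span the coreceptor Eng fell by 2.10 (SE 0.257, limma adjusted p = 0.000479). The signal carriers Smad5 and Smad3 fell by 0.88 and 0.84 (adjusted p = 0.00102 and 0.00873). The receptor Acvrl1 rose by 1.45 (SE 0.209, adjusted p = 0.0013). The inhibitors Smurf1 and Skil, named here beyond the largest differences, rose by 0.67 and 0.58 (limma adjusted p = 0.0151 and 0.0163). The counts thus mix genes of opposite action. The list median was 0.094, and the remaining 19 genes were not called. Without the 2 arrays low in Xist the counts were 2 and 3, 6 and 2, and 4 and 4.

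Of 5 zinc finger repressors that bind E-box-like sites, 1 was called higher and 1 lower at the first step, 0 and 1 at the second, and 1 and 1 over the whole span. Zeb2, a factor required for pDC development, was 10.34, 10.46 and 10.38 in Zbtb46- CDPs, 8.50, 8.59 and 8.59 in Zbtb46+ CDPs, and 7.28, 7.23 and 7.04 in pre-CD8 DCs, with no overlap between populations. It fell by 1.83 and then by 1.38 (SE 0.081 for both, limma adjusted p = 5.04e-06 and 2.1e-05), and 1.86% of genes were called lower at the second step. Its relative Zeb1 was 7.83, 7.15 and 6.97, then 9.40, 8.94 and 8.94, then 9.28, 8.99 and 9.35. Zeb1 rose by 1.77 at the first step (SE 0.223, limma adjusted p = 0.00106), and its second step was 0.11, with no call. The other 3 repressors were not called in any comparison, and the counts were the same without the 2 arrays low in Xist.

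Of 16 other bHLH factors that bind E-boxes, 1 was called higher and 4 lower at the first step, 1 and 1 at the second, and 1 and 2 over the whole span. Tfec fell by 1.97 and then by 0.91 (SE 0.126 for both), and its relative Mitf by 0.81 at the first step (limma adjusted p = 0.00732). Srebf2, which drives sterol synthesis, rose by 1.41 over the whole span (SE 0.192, limma adjusted p = 0.000919). Without the 2 arrays the counts were 2 and 4, 5 and 1, and 5 and 3.

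**Figure D4:**
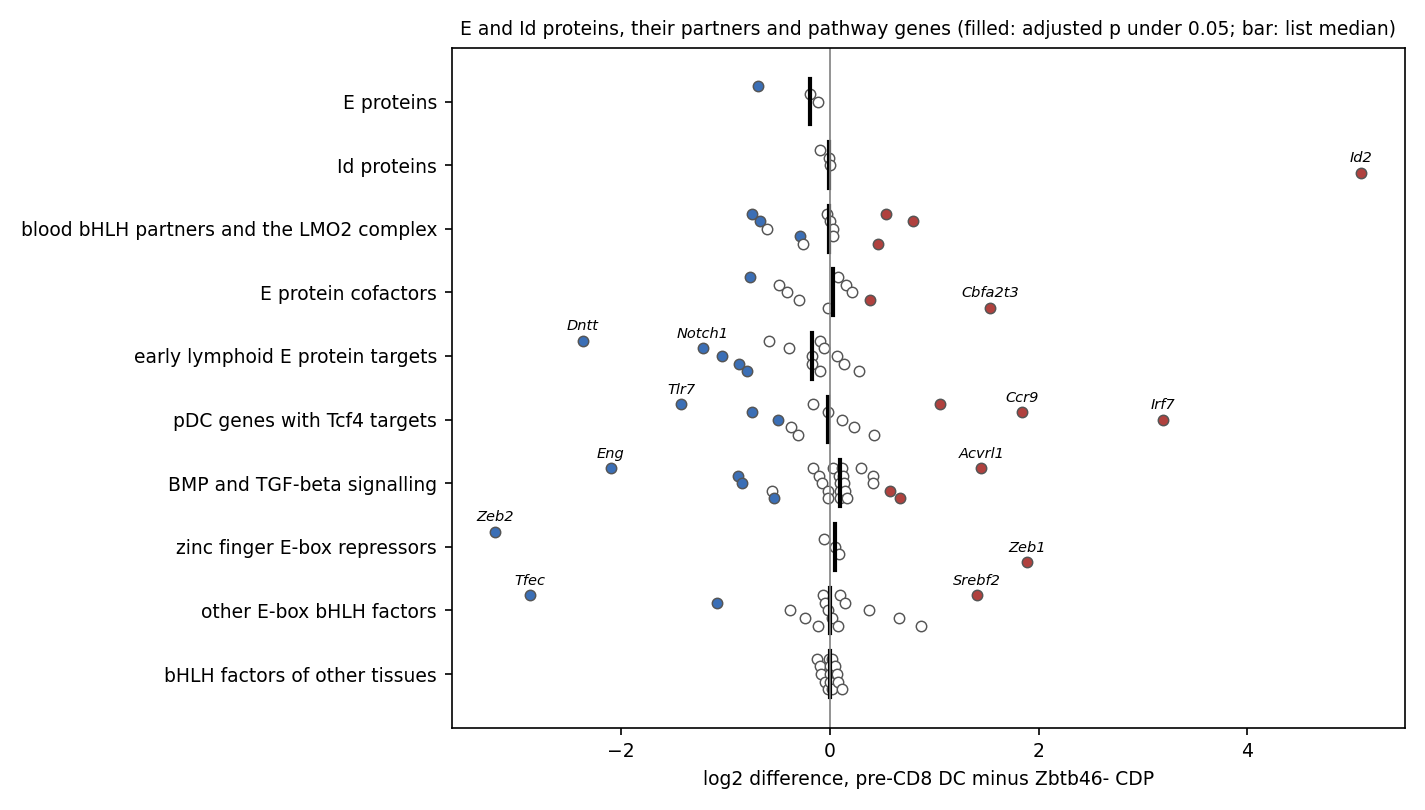
Log2 differences over the whole span, pre-CD8 DCs minus Zbtb46- CDPs, for each gene of the E protein and Id families and of the lists of partners and pathway genes. Each point is 1 gene, filled where the adjusted p is under 0.05 (red higher, blue lower), and bars are list medians. The called E protein gene is Tcf4 at -0.69, Id2 stands alone at 5.09, and bHLH factors of other tissues cluster around 0.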

How the data were processed

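RMA, run in Affymetrix Expression Console per the submitters' processing notes, turned the scans of the 9 arrays into 1 value per probe set. Versions and settings are not given in the sources used here. The deposited values are RMA signal intensity for 28853 probe sets on a linear scale. The planned analysis expected log2 values, so log2 was taken first, with no further scaling. The probe table named 21789 probe sets with 1 symbol, 1621 with several (left out), and 5443 were not in it. For 999 genes with several probe sets the brightest was kept, giving 19938 genes.

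Group means were fitted with limma 3.58.1 (lmFit, eBayes) under R 4.3.3, using every array without a block or a filter, and the steps were checked on simulated data. The number of arrays limits the precision. Residuals of same-numbered arrays correlated by 0.51, 0.42 and 0.36 between the CDP groups, and the numbers were taken to pair these. Differently numbered CDP arrays ran from -0.51 to 0.38, the highest being Zbtb46- CDP replicate 3 with Zbtb46+ CDP replicate 2. Number 2, at 0.42, was little above that highest value, and number 3, at 0.36, was below it. The pairing thus rests mainly on replicate 1, and numbers 2 and 3 are not clearly shown to pair. Same-numbered arrays correlated by -0.011, -0.026 and 0.028 over the whole span and by 0.11, 0.073 and 0.17 at the second step, which were not taken as pairs.

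The members, the gene lists and the alternatives were chosen with earlier results of these data known. Named are the members with Id2 and Id4, up to 4 called genes of each list and comparison with the largest difference, and the 4 genes most correlated with a member that the F test called; exceptions are marked. Not every gene so selected is printed. Gene symbols are those of the platform annotation. Promoters are from RefSeq (GRCm38.p6). Promoters were read and plots drawn in Python 3.11.15 (matplotlib 3.10.9, pandas 2.3.3, numpy 2.4.6). Alternatives were quantile and median scaling, the mean over probe sets, removal of dim genes, robust moderation, array weights, fits of 2 groups, a replicate block, a stricter threshold, and arrays left out.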

Additional observations from a re-analysis of the deposited data

How the results depend on the processing

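Of 383 values of the 5 members under the alternatives, 375 stayed on the same side of the threshold as reported, and the exceptions were all of Tcf4. Its first-step difference of -0.48 passed with a limma adjusted p of 0.0448 when the 30% dimmest genes were dropped, of 0.0373 over genes above the table median, of 0.0369 with a replicate block and of 0.0172 with that block in the CDP groups alone, an alternative added after seeing the data. It was -0.45 (adjusted p = 0.00773) with array weights, and -0.51 without the arrays low in Xist. With single arrays left out it ran from -0.62 to -0.37, and the whole-span difference from -0.77 to -0.58. Among uncalled values 32 changed sign, and 0 called values of the named genes did. Of 1131 values of the 59 named results, 100 lost their call, and 39 of the results kept it throughout.

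The fit to all 9 arrays called 768 genes higher and 2105 lower at the first step, 949 and 370 at the second and 1282 and 1841 over the whole span. A replicate block gave 1009 and 2451, 997 and 446, and 1407 and 2060, and changed no other call of a member. Array weights gave 2772 and 3658, 2021 and 1041, and 3225 and 3730. Adjusted p under 0.01 gave 370 and 1035, 374 and 169, and 840 and 1037. Quantile scaling gave 1216 higher at the first step and 654 lower at the second. Fits of the 2 groups alone gave 470 and 1388 at the first step and 601 higher at the second. Without the arrays low in Xist 1737 were higher at the first step, and 2496 higher and 1570 lower at the second. With single arrays left out the counts ran from 452 to 1999 and 1310 to 3269, from 458 to 1804 and 196 to 868, and from 946 to 1756 and 1263 to 2544. Removal of Zbtb46+ CDP replicate 1 gave 1999 and 3269 at the first step, and that of pre-CD8 DC replicate 1 gave 466 and 196 at the second. The causes were not tested. The 3 arrays of a group, and for Id1 and Id3 signals below the table median, limit the precision.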
